A study of Drosophila melanogaster with 12 samples.

Results

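The lysosomal α-mannosidase family of Drosophila melanogaster was followed in RNA from whole third-instar larvae on 12 one-colour Affymetrix Drosophila Genome 2.0 arrays. The family comprises 6 genes, LManI (CG5322), LManII (CG6206), LManIII (CG9463), LManIV (CG9465), LManV (CG9466) and LManVI (CG9468), and each is represented by 1 probe set. The members were taken by gene symbol. LManI, LManII, LManIII, LManV and LManVI were read from the authors' dChip intensities, a table of 9669 probe sets restricted to Present calls, and LManIV, absent from it, was read from the deposited series matrix of 18769 probe sets without array controls. The family was chosen by its gene names after the low LManIII intensity of fed mutants was known, that is, it was selected on the fed genotype contrast, so the fed genotype difference is given below as a description that supports nothing. The starvation contrasts and the interaction reuse the same fed arrays, so for LManIII they too are given as a description, in both genotypes.

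Larvae of 2 genotypes were compared on 2 diets, with 3 arrays in each of the 4 groups. Controls carried precise excisions of the P-elements EP2449 and KG08976 in trans. Larvae labelled as HNF4 null, called mutants here, carried the alleles HNF4(del33) and HNF4(del17) in trans. Fed larvae stayed on normal food, and starved larvae were taken as late second instars and kept for 24 h on paper wetted with buffer. All were labelled mid-L3, and RNA came from animals that looked healthy and had moulted to the third instar, so larvae that failed to moult or survive are not represented. Each genotype is 1 combination of alleles. The labels do not say whether replicates were separate cultures, so the p-values measure the spread between these samples, which may be technical.

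α-Mannosidases of the lysosome cut terminal mannose residues from the N-linked glycans of glycoproteins that reach this acidic compartment, and the freed sugar can be reused by the cell. Their loss in humans and other mammals causes α-mannosidosis, in which mannose-rich oligosaccharides accumulate. They are distinct from the α-mannosidases of the endoplasmic reticulum and Golgi, which trim glycans while a glycoprotein is being made. HNF4 is a nuclear receptor, a transcription factor of the ligand-binding type, known in fly larvae for its role in the use of stored fat during starvation.

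All 6 genes lie on chromosome arm 2L in RefSeq's annotation of genome Release 6, in 2 clusters. LManI (10452677 to 10457241) and LManII (10457658 to 10462472) are adjacent. LManIII (8765273 to 8768710), LManIV (8769159 to 8772344), LManV (8772946 to 8776263) and LManVI (8777661 to 8781252) follow one another without interruption. This second cluster lies near Hnf4 itself (8687226 to 8709611): LManIII starts 55.7 kb past the end of Hnf4, whereas LManI starts 1743 kb past it. The positions of the array probes within the genes are not given in the sources used here. Whether a probe set also bound RNA of another paralog was not tested, and levels are not compared between probe sets.

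Array medians were 483 to 552 in the dChip table and 79.1 to 113 in the series matrix, and arrays have no read depth, so their number limits the precision. Hnf4 was higher in mutant than in control arrays, by 0.31 ± 0.08 (log2 difference ± SE of the limma fit) in fed and 0.70 ± 0.08 in starved larvae; without the probes' place relative to the deletions this does not check the genotype label. The fed arrays did not form uniform groups. Lsp2, a serum protein of the third-instar fat body and the only 1 of 5 fat body markers in the dChip table, had intensities of 18373, 16372 and 290.4 in control fed replicates 1, 2 and 3. The mutant fed arrays read 13857, 328 and 780.0, and the 6 starved arrays lay between 287 and 374. High Lsp2 thus separated control fed replicates 1 and 2 and mutant fed replicate 1 from the other 9 arrays. Results that rest on fed arrays are therefore given with and without these 3, a setting chosen after the data were seen. It leaves 1 control fed array, which is then assumed to vary like the other groups.

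LManIII varied most among the 4 groups. Control fed replicates 1, 2 and 3 read 4822, 4132 and 1450.1, and mutant fed replicates read 635, 325 and 559. After starvation the intensities were 6293, 5748 and 6341 in controls and 2434, 1878 and 2171 in mutants. The means ± SD (n = 3) thus rose from 506 ± 161 in fed mutants through 2161 ± 279 in starved mutants and 3468 ± 1781 in fed controls to 6127 ± 330 in starved controls. Starved mutants and fed controls overlapped in this order, and the other neighbours did not.

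LManIV, the next gene along the chromosome, was dimmer in mutants than in controls on both diets. On the series matrix scale it read 402, 409 and 124 in control fed and 90.7, 48.7 and 45.2 in mutant fed arrays. The control starved arrays read 289, 212 and 255 and the mutant starved arrays 71.8, 102 and 54.2. The mutant groups, with means of 61.5 ± 25.3 fed and 76.1 ± 24.3 starved (SD, n = 3), overlapped each other, as did the control groups, at 312 ± 163 fed and 252 ± 38.2 starved. The control fed and mutant fed arrays did not overlap, nor did the 2 starved groups. All 12 values lay above the floor of 16 that was applied before taking log2.

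LManV and LManVI, the remaining genes of this cluster, were bright on all 12 arrays. LManV read 13583, 9786 and 5539 in control fed and 6809.7, 4291 and 7307 in mutant fed arrays. In starved larvae LManV read 10591, 9510.0 and 10128 in controls and 7422, 6290.1 and 7064 in mutants. Its order of means was mutant fed, mutant starved, control fed, control starved, and each neighbouring pair overlapped. LManVI had the same order of arithmetic group means, with 13433, 10222 and 4304 in control fed and 6636, 3697 and 6286 in mutant fed arrays. On the log2 scale, however, its mean was higher in starved mutants than in fed controls. In starved larvae LManVI read 11673, 11243 and 12446 in controls and 9952, 8359.7 and 9429 in mutants. For LManVI the fed and starved mutants were separate and the other neighbouring pairs overlapped.

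The adjacent genes LManI and LManII had their highest group means in starved controls, followed by starved mutants. LManI read 1575, 1072 and 454 in control fed and 871, 535 and 834 in mutant fed arrays. In starved larvae LManI read 2303, 1849 and 2271 in controls and 1738, 1532 and 1747 in mutants. Every starved array of LManI except mutant replicate 2 exceeded the highest fed array, control replicate 1. LManII read 5009, 3363 and 1998 in control fed and 4160.1, 2881 and 4517 in mutant fed arrays. In starved larvae LManII read 6648, 5884 and 6645 in controls and 4875, 4875 and 4951 in mutants. For LManII the 2 fed groups overlapped, while starved mutants lay above fed mutants and starved controls above starved mutants without overlap. All 3 starved mutant arrays of LManII nevertheless lay below control fed replicate 1.

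**Figure D1:**
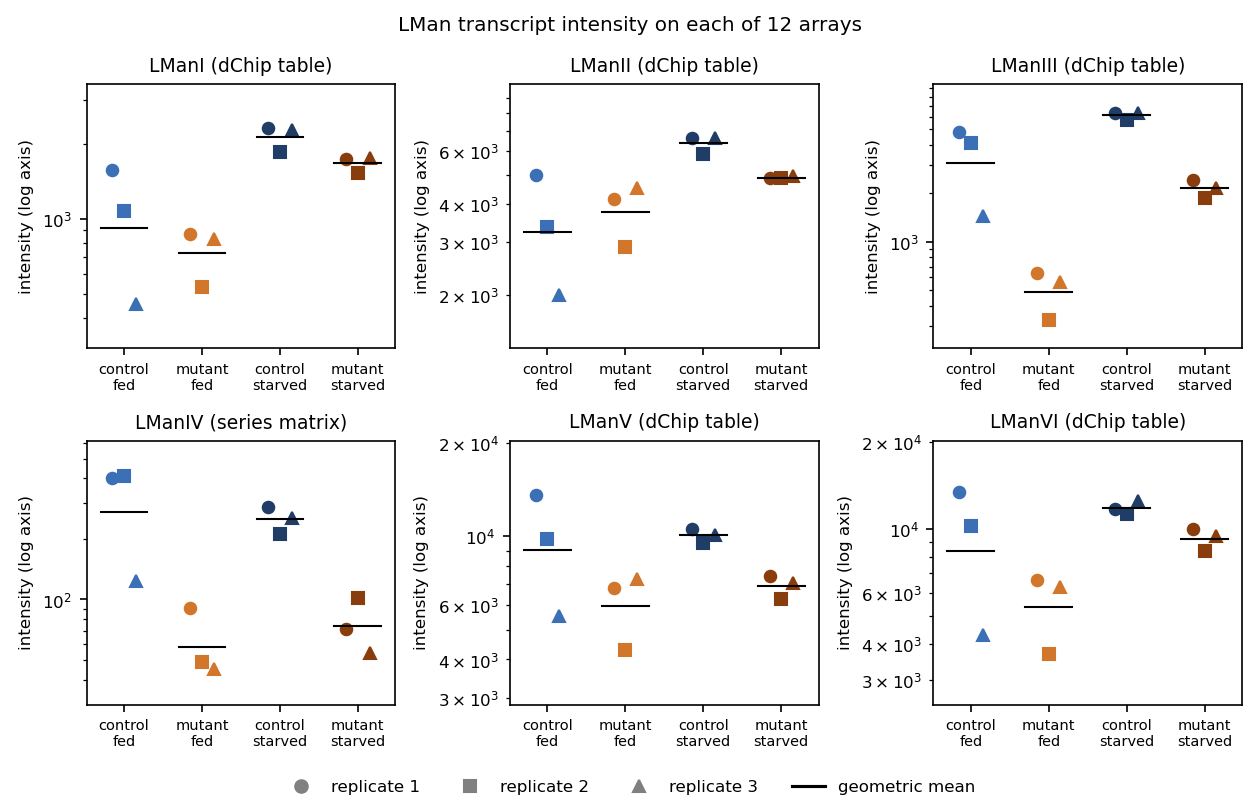
Intensity (log axis) of the 6 LMan probe sets in the 4 groups, with LManIV on the series matrix scale and the others on the dChip scale. Points are the 3 arrays of a group and bars the geometric means, whereas the text gives arithmetic means. For LManVI the bar of starved mutants therefore lies above that of fed controls. LManIII and LManIV show mutant arrays below the control arrays on both diets, and the control fed points are widely spread in every panel.

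Among replicate arrays of fed larvae, the LMan genes were low in the same arrays. Control fed replicate 3 was the lowest of its group for all 6 genes, and the highest control fed array exceeded it by between 2.45 times (LManV) and 3.47 times (LManI). Of all dChip probe sets, 32.4% had this array lowest and 1.83% had a control fed ratio of at least 2.45. Among the probe sets with such a ratio, 68.4% had replicate 3 lowest, so a low replicate 3 was common among widely spread probe sets. Mutant fed replicate 2 was the lowest of its group for the 5 genes of the dChip table, whereas for LManIV replicate 3 was; 30.2% of all dChip probe sets had replicate 2 lowest. Among the 5 dChip genes the SD of log2 intensity was 0.65 to 0.94 in control fed arrays, where the median over all probe sets was 0.16, and 0.35 to 0.51 in mutant fed arrays, where it was 0.12. In starved arrays the same genes had SDs of 0.07 to 0.18 in controls and 0.01 to 0.19 in mutants, against medians of 0.09 and 0.11. A shared low array was also seen there, as replicate 2 was the lowest for these 5 genes in both starved groups. The highest starved array exceeded it by only 1.02 to 1.30 times. The share of all probe sets with this pattern was not computed. Both low fed arrays were also low in Lsp2, as was mutant fed replicate 3. In the dChip table LManII and LManV were highest of the mutant fed group in replicate 3, and LManI, LManIII and LManVI in replicate 1. In the series matrix all 6 genes were highest in mutant fed replicate 1, LManII by a very small margin. The part of larval stage, fat body or any other tissue in this spread was not tested. In RNA of whole larvae, fewer cells of a type and less RNA per cell cannot be told apart.

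**Figure D2:**
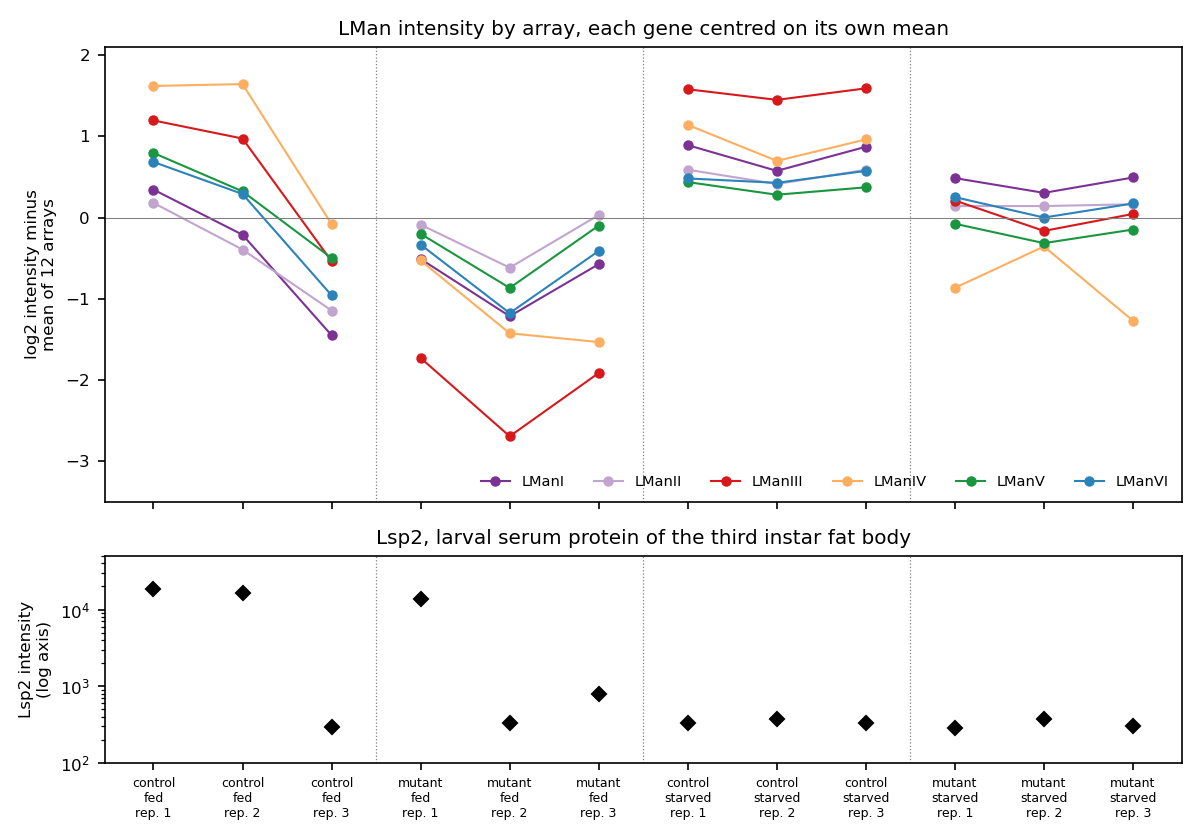
Upper panel, log2 intensity of each LMan gene minus its own mean over the 12 arrays, for every array; lines join arrays of 1 group only to guide the eye, since replicates have no order. Lower panel, Lsp2 intensity (log axis) of the same arrays. All 6 genes are lowest in replicate 3 among the control fed arrays, and the starved arrays are much closer to each other.

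In fed larvae, the genotype difference that brought the family to attention was largest for LManIII, with a log2 difference of -2.66 ± 0.38 (mutant minus control ± SE), which is 6.30-fold lower. LManIV was 4.67-fold lower, at -2.22 ± 0.48 on the series matrix scale. These were the 2 genes of 6 whose fed arrays did not overlap between genotypes, with the mutants lower, as were 8.48% of all dChip and 4.19% of all series matrix probe sets. LManV and LManVI had differences of -0.60 ± 0.28 and -0.65 ± 0.35, and both overlapped. LManI and LManII had -0.33 ± 0.36 and 0.23 ± 0.27. By the limma fit with Benjamini-Hochberg adjustment 1 of 6 members, LManIII, passed the threshold of 0.05, which 1.05% of the dChip probe sets (0.869% lower in mutants) and 0.336% of the series matrix probe sets also did; since this contrast chose the family, nothing is read from that count. Without the 3 fed arrays with high Lsp2, the fed difference was -1.77 for LManIII and -1.40 for LManIV, and it was above 0 for LManI (0.55), LManII (0.85), LManV (0.016) and LManVI (0.16).

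In starved larvae, which are separate arrays, LManIII was 2.85-fold lower in mutants than in controls, with a log2 difference of -1.51 ± 0.38 (limma, adjusted p = 0.0358 over all 9669 probe sets, lower in 3 of 3 arrays). LManIV differed by -1.76 ± 0.48, that is 3.40-fold, without passing the test across the series matrix (limma, adjusted p = 0.132). The differences of the other members were smaller, at -0.54 ± 0.28 for LManV, -0.35 ± 0.35 for LManVI, -0.35 ± 0.36 for LManI and -0.38 ± 0.27 for LManII (limma, adjusted p from 0.315 to 0.683). Thus 1 of 6 members passed, against 7.61% of dChip (3.7% lower) and 2% of series matrix probe sets. All 6 members, LManI and LManII included, had every mutant starved array below every control starved array, where 14.4% of dChip and 9.42% of series matrix probe sets did. The members share the same arrays and are correlated with each other, so these are not independent observations. The members' median difference was -0.46, with LManIV taken from the series matrix. That of all dChip probe sets was -0.01 and that of all series matrix probe sets was 0.

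The call of LManIII in starved larvae depended on single arrays. It was lost when mutant fed replicate 3 was left out (limma, adjusted p = 0.0527), when any 1 of the 6 starved arrays was left out (adjusted p from 0.0743 to 0.116, with differences of -1.60 to -1.41), and in the series matrix (-1.57, adjusted p = 0.209). The SE of 0.38 pools the wide fed groups with the narrow starved ones. A fit to the 6 starved arrays alone gave LManIII an SE of 0.11 and also called LManII and LManV (limma, adjusted p = 0.000571, 0.0241 and 0.0133). Leaving out the 3 fed arrays with high Lsp2 called LManIII and LManIV in starved larvae (limma, adjusted p = 0.00308 and 0.0345).

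Among the tissue markers, Irk2 of the Malpighian tubule and Pxn of hemocytes were lower in starved mutants, with log2 differences of -0.57 and -0.41 (limma, adjusted p = 0.0176 and 0.0383), and no other measured marker passed in this contrast, where 3.7% of all dChip probe sets were lower. Summed levels, which are carried by the brightest members of a list, were also compared. The summed intensity of midgut digestive enzymes (4 of 6 markers measured) was 32877 to 34512 in starved controls and 25243 to 30208 in starved mutants. That of Malpighian tubule markers (2 of 5) was 4223 to 5087 and 3494 to 3599, and that of hemocyte markers (5 of 5) was 3691 to 3939 and 2619 to 3519. Neuron markers (2 of 4) summed to 691 to 793 and 602 to 690.1, and male germline markers (3 of 4) to 425 to 464 and 361 to 385. These 5 sums were lower in every mutant array, as the LMan genes were. Within these lists Mal-A1 (-0.01), salt (0.08), NimC1 (-0.02) and srp (0.03) differed little. Besides Irk2 and Pxn, all the remaining measured members had negative differences, from -0.54 (Amyrel) and -0.51 (Hml) to -0.18 (vas), without passing. Salivary gland markers (3 of 5) overlapped, at 717 to 819 in controls and 625 to 799 in mutants, as did muscle markers (2 of 5), at 28348 to 29872 and 29105 to 31528. None of these markers was at 0. Their part in the LMan differences was not tested.

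LManI was 2.33-fold higher in starved than in fed controls. Its log2 difference was 1.22 ± 0.36 (starved minus fed ± SE, limma, adjusted p = 0.0107). LManII rose by 0.98 ± 0.27 (limma, adjusted p = 0.00719). LManIII was higher by 1.00 ± 0.38, a description without a test, since the control fed arrays took part in the selection. In these 3 genes every starved array exceeded every fed one, as in 38.1% of dChip probe sets. LManVI, LManV and LManIV had differences of 0.49 ± 0.35, 0.16 ± 0.28 and -0.13 ± 0.48 and did not pass (limma, adjusted p = 0.226, 0.630 and 0.928). Counting LManIII, 3 of 6 members passed the threshold, all of them higher. Of all dChip probe sets, 36.1% were called higher and 68.2% in either direction, as were 28.3% of series matrix probe sets. With 6 members, nothing particular to the family is read from this count. In both genotypes the starved larvae left their food as late second instars, while fed larvae stayed on it. Lack of food and a difference in developmental progress therefore cannot be told apart in the starvation contrasts.

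The size of these responses depended on control fed replicate 3. Without it LManI differed by 0.71 and LManII by 0.64, both still called (limma, adjusted p = 0.0149 and 0.0150). In the series matrix neither passed (adjusted p = 0.123 and 0.109). Without control fed replicate 3 LManIII differed by 0.46. It passed the threshold neither then nor without any 1 of the control starved arrays. Nor did LManIII pass with quantile normalization, with median centring, with the 6 control arrays alone or in the series matrix. Without the 3 fed arrays with high Lsp2, where control fed replicate 3 is the only control fed array, 5 of 6 members passed. The differences were then 2.23 for LManI, 1.68 for LManII, 2.08 for LManIII, 1.45 for LManVI and 0.86 for LManV, while LManIV differed by 1.01 (limma, adjusted p = 0.0982).

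In mutants, LManIII was 4.41-fold higher after starvation, with a log2 difference of 2.14 ± 0.38. This value takes as its baseline the low fed mutant arrays on which the family was selected, so it is a description and no test is given; in controls the difference was 1.00, as above. LManI rose by 1.19 ± 0.36 (limma, adjusted p = 0.0102), a call lost in the series matrix only (adjusted p = 0.0860). LManVI, at 0.78 ± 0.35, had starved mutant arrays that all exceeded the fed ones, as in 39.7% of dChip probe sets. It did not pass (limma, adjusted p = 0.0586), but did in 7 of 24 alternative settings. With quantile normalization its difference was 0.92 (limma, adjusted p = 0.0223). LManII, LManIV and LManV differed by 0.37 ± 0.27, 0.33 ± 0.48 and 0.21 ± 0.28 (limma, adjusted p = 0.222, 0.688 and 0.508). Counting LManIII, 2 of 6 members passed the threshold. The background was again high, with 75.7% of dChip probe sets called (37.5% higher) and 31.6% of series matrix probe sets, so that count says nothing particular about the family. Starved LManIII in mutants, at 2161 ± 279, remained below starved LManIII in controls, as above.

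**Figure D3:**
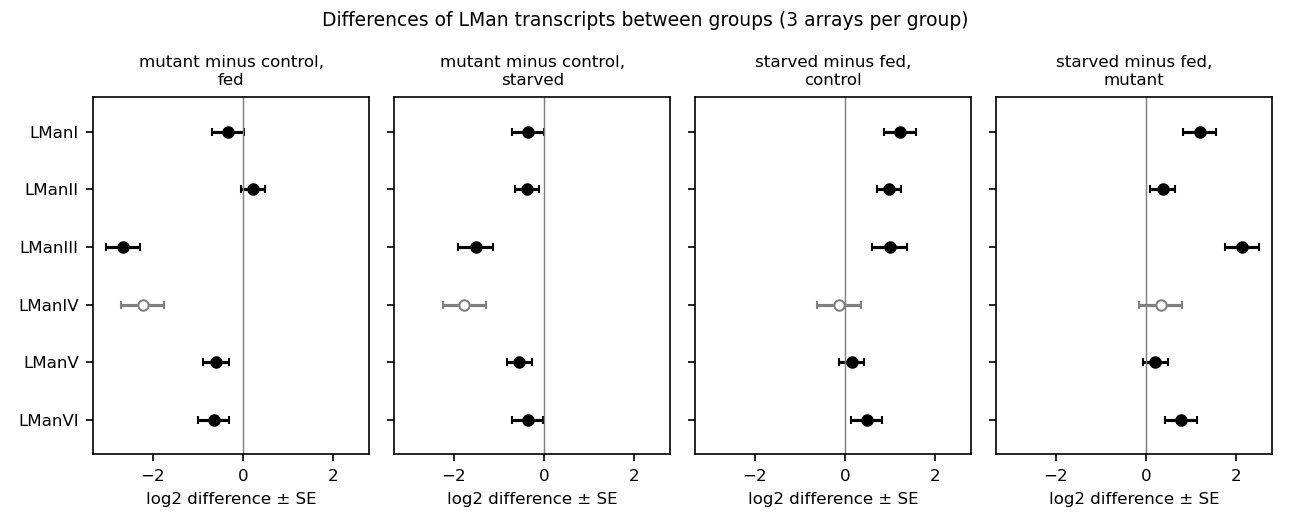
Log2 differences of the 6 LMan genes with their standard errors (limma fit over 12 arrays), for the genotype contrast in fed and in starved larvae and for the starvation contrast in controls and in mutants. LManIII and LManIV lie furthest below 0 in both genotype contrasts, and LManIII furthest above 0 for starvation in mutants; contrasts share groups and are not independent of each other.

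The starvation responses of the 2 genotypes were compared with the interaction term. For LManIII the difference between the responses, mutant minus control, was 1.15 ± 0.54, which did not pass the threshold and is given as a description. The other members had differences between responses of -0.61 ± 0.38 for LManII, 0.46 ± 0.68 for LManIV, 0.29 ± 0.49 for LManVI, 0.05 ± 0.39 for LManV and -0.02 ± 0.51 for LManI. With limma 0 of 6 members were called, and 0 had an unadjusted p under 0.05, where 2.59% of dChip and 0.139% of series matrix probe sets were called. The LManIII value moved with the fed arrays used: it was 1.69 without control fed replicate 3 and 1.30 with array weights, both past the threshold, and 0.26 without the 3 fed arrays with high Lsp2, which was not. It rests on the fed arrays used in the selection, and no weight is put on these calls.

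The paralogs were compared in their response to starvation, averaged over the 2 genotypes, as the within-array log2 difference of 2 probe sets. The mean responses were 1.57 for LManIII, 1.21 for LManI, 0.68 for LManII, 0.64 for LManVI and 0.18 for LManV. A two-sided exact permutation test permuted diet within genotype over 400 regroupings, with a smallest possible p of 0.005. It was adjusted over the 10 pairs, those with LManIII included. How often other pairs of probe sets would pass was not computed, so nothing particular to the family is read from the number of passing pairs. LManI exceeded LManV by 1.02 and LManVI by 0.57 (adjusted p = 0.01 for each, permutation test). LManVI responded more than LManV, by 0.45 (LManV minus LManVI -0.45, permutation test, adjusted p = 0.01), although the genes are neighbours. LManII exceeded LManV by 0.50 (adjusted p = 0.0167, permutation test), with 0.83 in controls and 0.16 in mutants, and this pair did not pass in the series matrix (0.33, adjusted p = 0.0886, permutation test) or without the 3 fed arrays with high Lsp2 (0.48, adjusted p = 0.0625, permutation test). Its chromosomal neighbour LManI exceeded LManII by 0.53 (adjusted p = 0.0214, permutation test), with 0.24 in controls and 0.82 in mutants. LManII minus LManVI was 0.04 and did not pass (permutation test, adjusted p = 0.79). This average joined opposite signs, 0.49 in controls and -0.41 in mutants. The pairs with LManIII include the fed mutant values that selected the family and are given without a test. LManIII minus LManV was 0.84 in controls and 1.93 in mutants, and LManIII minus LManVI was 0.51 and 1.36. LManI minus LManIII was 0.22 in controls and -0.95 in mutants, and LManII minus LManIII was -0.01 and -1.77.

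LManIV entered this comparison only on the series matrix scale, with 15 pairs. Its mean response was 0.10, below LManI by 1.03 (permutation test, adjusted p = 0.0188 over the 15 pairs). The response of LManIII minus that of LManIV was 0.95 in controls and 1.78 in mutants, given without a test for the same reason. Within starved larvae, the genotype difference of LManIII exceeded in size those of the other dChip members by between 0.97 (LManV) and 1.16 (LManI, LManVI) log2 units, and 3 against 3 arrays allow no two-sided exact permutation p below 0.1, which each of these pairs had (adjusted p = 0.143). On the series matrix scale the starved genotype difference of LManIII minus that of LManIV was 0.20 (exact permutation p = 0.7), whereas LManIV minus LManV and LManIV minus LManVI were -1.25 and -1.32 (exact permutation p = 0.1 for each, the smallest possible).

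Measured genes around Hnf4 and the LManIII to LManVI cluster were examined because the alleles are named as deletions of HNF4 and the cluster is near. RefSeq places 3 protein-coding genes between Hnf4 and LManIII, of which 1 was measured in the dChip table, raw, a negative regulator of JNK signalling. The log2 difference of raw, mutant minus control, was 0.02 in fed larvae and 0.66 in starved larvae (limma, adjusted p = 0.000239). CG42710, the next measured gene past LManVI, differed by 0.15 fed and 0.05 starved. Among the 21 measured neighbours, without Hnf4 and the LMan genes, 3 were higher and 4 lower in starved mutants by the same test, where 3.91% of all dChip probe sets were higher and 3.7% lower. The lower ones were Trs23, a subunit of the TRAPP vesicle tethering complex (-1.24), PrBP (-0.92), Glt, a basement membrane glycoprotein (-0.61), and Acer (-0.46), all on the other side of Hnf4 from the LMan cluster. Besides raw, CG9289 (5.87) and rost (0.76) were higher. In fed larvae CG9289 was higher (3.04) and Trs23 lower (-0.92). The genes were taken by position, with earlier results known.

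**Figure D4:**
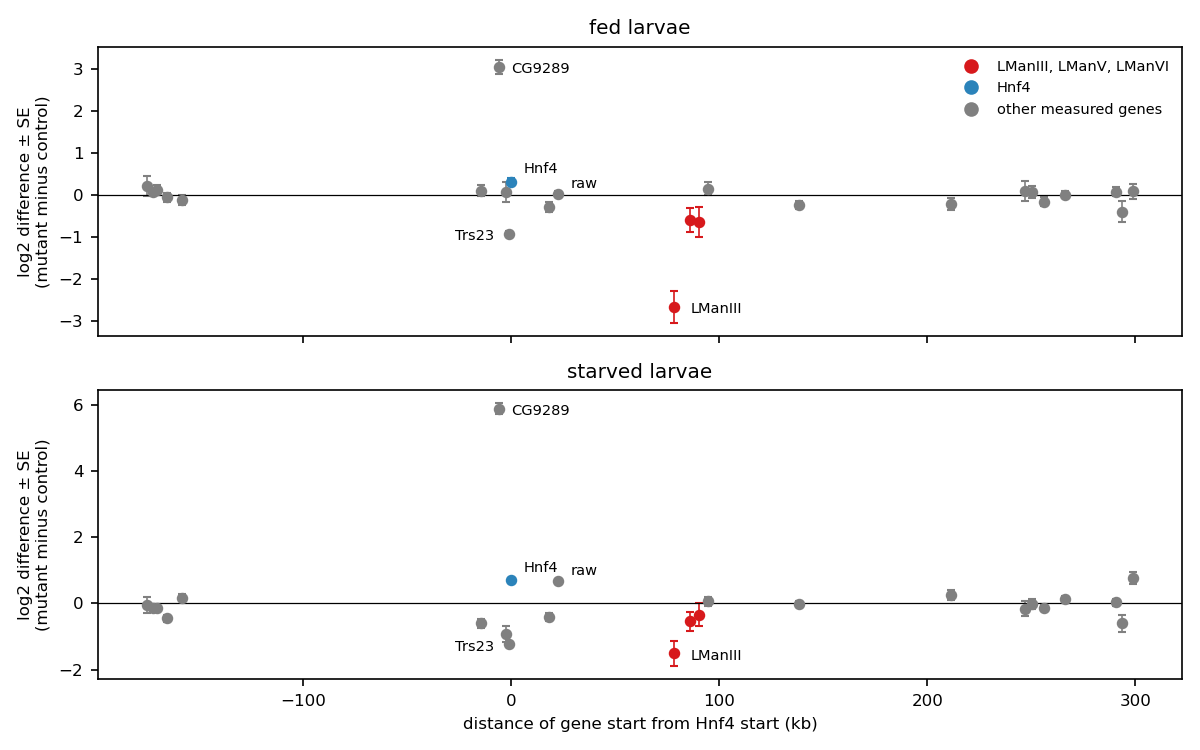
Log2 difference, mutant minus control, of measured genes around Hnf4 in fed and starved larvae, against the distance of each gene's start from the start of Hnf4; error bars are standard errors of the fit. LManIV is not plotted, being absent from the dChip table. Of the plotted genes on the side of the LMan cluster LManIII is the lowest on both diets, while raw and CG42710, on either side of the cluster, do not fall below 0.

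Other genes of glycan breakdown and of the lysosome gave a reference for the family. Of the α-mannosidases of the Golgi and endoplasmic reticulum, 3 of 7 were measured, and all 3 were lower in starved than in fed controls (limma): alpha-Man-Ia by -0.59, alpha-Man-Ib by -0.45 and alpha-Man-IIa by -0.26. Of all dChip probe sets, 32.1% were lower in this contrast. LManI and LManII were called higher in that contrast, and LManIII, given only as a description, was also higher. The difference between the classes was not tested. Other enzymes listed with lysosomal glycan breakdown (11 of 22 measured) split, with 4 higher and 5 lower in starved controls and a median of -0.00. Where in the cell each listed enzyme acts was not tested, and not all need be lysosomal. Examples were CG5731, related to α-galactosidases, at 0.96, the aspartylglucosaminidase gene CG1827 at 0.66 and the N-glycan hexosaminidase gene fdl at -0.58.

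Lysosomal proteases (14 of 18 measured) had 8 members higher and 3 lower in starved controls, with a median of 0.57. Of all dChip probe sets, 36.1% were higher and 32.1% lower in this contrast. Among the proteases were the cathepsin genes CtsF at 1.61 and CtsL1 at 1.09 and the aspartyl protease gene Bace at 3.98. A list of lysosomal membrane proteins, lipases, cofactors and others such as Mitf, car, dor and Arl8 had 14 of 20 measured. Of these, 9 were higher and 0 lower, with a median of 0.52. The LMan median was 0.74, with LManIV taken from the series matrix, and it rests on responses that depended on control fed replicate 3. The median was 0.03 for all dChip and 0.14 for all series matrix probe sets. Examples were the acid lipase genes Lip3 at 5.47 and Lip4 at 2.63 and the saposin gene Sap-r at 1.12. In mutants the counts higher and lower on starvation were 0 and 3, 4 and 3, 8 and 3, and 12 and 2 for the 4 lists in this order, where 37.5% of all dChip probe sets were higher and 38.3% lower.

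In the genotype contrast of starved larvae, none of the measured members of the 4 lists was lower in mutants by the limma test and 4 were higher, where 3.7% of all dChip probe sets were lower and 3.91% higher, so nothing particular to these lists is read from the counts. The 4 that were higher were Sgsh, the heparan N-sulfatase gene (0.81), Arl8, a small GTPase of lysosome transport (0.44), CtsL1 (0.36) and Npc1a, a sterol transporter gene (0.27). In fed larvae 0 of these genes were called in either direction, where 1.05% of all probe sets were.

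The genes whose log2 profiles over the 12 arrays were most like each member are given as a description, since all members share the same arrays and the same large effect of diet. For LManIII they were CG4586 (Pearson r 0.938, Spearman rho 0.951), Naprt, of NAD synthesis (r 0.936, rho 0.895), and GILT3 (r 0.935, rho 0.888). For LManIV, over all series matrix probe sets, they were Cyp6a18, a cytochrome P450 gene (r 0.948, rho 0.895), Hacl (r 0.938, rho 0.874) and the peroxisomal import gene Pex13 (r 0.931, rho 0.846). LManV and LManVI shared CG34112 as their nearest gene (r 0.959 and 0.965), and LManVI was the third nearest of LManV (r 0.903). LManVI was also close to CG34316 (r 0.953) and to the digestive protease gene Jon65Ai (r 0.951), and LManV to CG11162 (r 0.907). The closest to LManI were CG31463, Cyp12e1 and CG13893 (r 0.987, 0.986 and 0.985), and to LManII CG33514, CG33127 and Kdsr (r 0.983, 0.978 and 0.967). No other LMan gene was among the nearest 3 of LManI, LManII, LManIII, LManIV or LManVI. Members were still correlated with each other in the series matrix, with r from 0.382 (LManII and LManIV) to 0.936 (LManI and LManVI).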

How the data were processed

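Total RNA was extracted with Trizol and labelled with biotin, per the labels' protocols. The authors deposited intensity values on a linear scale, normalized with dChip and restricted to Present calls per the file headers, and a series matrix of processed intensity. The dChip version, model and Present rule, and how the matrix signal was computed, are not given in the sources used here. Any value below 16 was set to 16 before log2 was taken, and nothing else was normalized here. This changed 11 values in the dChip table and 44821 in the series matrix (18769 probe sets on 12 arrays).

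Group means were estimated from the 12 arrays with limma 3.58.1 (R 4.3.3; lmFit, eBayes, 8 residual degrees of freedom), separately for each table, and p-values were adjusted by Benjamini-Hochberg over all probe sets of the table (threshold 0.05). Fold changes are of floored values. The code was tested on simulated data. Columns were matched to samples by name, and probe sets to genes by the platform's annotation, whose symbols were brought up to date from RefSeq. Members, gene lists, markers and tests were chosen with earlier results of these data known. Named genes were all members, the 3 most correlated genes of each, up to 3 called genes per list in 2 contrasts, and neighbours of Hnf4. From the lists, 3 genes were dropped for a mismatch of symbol and CG number. Alternatives covered the table, floor, normalization, dim probe sets, array weights, a replicate block, the arrays fitted and leaving out arrays. No sequences are shown.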

Additional observations from a re-analysis of the deposited data

How the results depend on the processing

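The main counts of LMan genes called were 1 (fed genotype), 1 (starved genotype), 3 (starvation, controls), 2 (starvation, mutants) and 0 (interaction); the fed count, and LManIII in the counts that reuse the fed arrays, are descriptions, since those arrays chose the family. They were 0, 0, 0, 1 and 0 in the series matrix, and 2, 2, 3, 3 and 1 with array weights, also by the gene-by-gene method, added after the data were seen. With the compared groups alone they were 0, 3, 2 and 3. Without the 3 fed arrays with high Lsp2 they were 0, 2, 5, 4 and 0. With 1 array left out they ranged over 1 to 4, 0 to 2, 2 to 4, 2 to 3 and 0 to 1. The extreme of 4 fed calls came without control fed replicate 3. Pairs of paralogs under the threshold ranged over 7 to 8, a count that includes pairs with LManIII, which are descriptions. Floors of 1 and 64, leaving out the dimmest 40% and moderated trend with robust fitting kept the counts. Quantile normalization gave 1, 1, 2, 3 and 0, and median centring 1, 1, 2, 2 and 0. Replicate numbers did not pair the arrays: of 18 same-numbered pairs 5 correlated above 0.1, and 4 of 12 arrays correlated best with their own number. The fit with the replicate block gave counts of 1, 1, 3, 2 and 0. 

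Differences that changed sign were uncalled in both settings. The LManI interaction became 0.11 in the series matrix, 0.043 with array weights and 0.045 with gene-by-gene weights, and without single arrays it ranged from -0.42 to 0.48. The LManV interaction became -0.071 with quantile normalization and -0.56 without the high-Lsp2 arrays, and ranged from -0.24 (without control fed replicate 1) to 0.40 (without control fed replicate 3) without single arrays. The LManVI interaction ranged from -0.046 to 0.77 without the same arrays. Without the high-Lsp2 arrays it was -0.52, and that of LManIV was -0.37. The fed genotype difference of LManI was 0.064 without control fed replicate 1 and -0.83 without control fed replicate 3, and that of LManII -0.12 without the latter. Without the high-Lsp2 arrays it was 0.55 for LManI, 0.016 for LManV and 0.16 for LManVI. For starvation of controls, LManIV ranged from -0.70 (without control fed replicate 3) to 0.16 (without control fed replicate 2) and was 1.01 without the high-Lsp2 arrays, and LManV ranged from -0.20 (without control fed replicate 3) to 0.45 (without control fed replicate 1). For starvation of mutants, LManV ranged from -0.030 (without mutant fed replicate 2) to 0.35 (without mutant fed replicate 3). The starvation response of LManII minus LManVI became -0.10 in the series matrix and -0.14 without the high-Lsp2 arrays. The cause was not tested.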
